A study of Mus musculus with 18 samples.

Results

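The effect of cytokines was examined in aggregates of TKO cells, mouse cells without TET proteins, at day 6. The comparison set the 2 TKO libraries with cytokines against the 2 without, 4 of the 18 RNA-seq libraries of the study, over all genes. Of the 25239 genes in the count table, 16582 had enough counts to be tested. All cells derived from E14Tg2a, a mouse embryonic stem cell (ESC) line, and in TKO cells the open reading frames of Tet1, Tet2 and Tet3 had been cut out with CRISPR/Cas9. The study describes a single TKO clone for most of its experiments. TKO cells were turned into epiblast-like cells (EpiLCs), the starting cells for germ cell induction, and were then grown in suspension as aggregates of primordial germ cell-like cells (PGCLCs). One group received BMP4, BMP8a, SCF, EGF and LIF and the other was left without these proteins. Every library is a biological replicate by the study's methods. The same 2 conditions in TKO cells at day 2 and in wild-type E14Tg2a cells at day 6 are given beside the comparison. A figure legend of the study describes sorting on the surface markers SSEA1 and CD61 for the wild-type cells that had cytokines until day 6, whereas the labels name aggregates, and the TKO aggregates were taken whole.

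Primordial germ cells arise in the mouse epiblast in response to BMP4, and the cytokine mix imitates these signals in culture. BMP4 and BMP8a bind BMP receptors and activate SMAD1 and SMAD5, which switch on the Id genes and their own inhibitors. LIF acts through LIFR and IL6ST on STAT3, whose targets include the inhibitor Socs3 and the naive pluripotency factors Klf4 and Tfcp2l1, while SCF acts through KIT and EGF through EGFR on the ERK pathway. TET proteins oxidise methylated cytosine in DNA and so take part in its demethylation.

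Total counts were 12063489 and 11286050 without cytokines and 11741889 and 16386003 with cytokines, and between 11286050 and 41257861 over the 18 libraries. The locus Rn45s, which encodes ribosomal RNA, took 17.5% to 18.4% of the counts without cytokines and 37.0% to 37.3% with cytokines. Leaving it out of the table gave 39 genes called higher and 272 lower, against 40 and 268 with it, by the rule given below. Tet1, the most abundant Tet gene in wild-type EpiLCs, had normalised counts (counts divided by DESeq2 size factors) of 998 and 737 without and 504 and 783 with cytokines, against 6036 and 6227 in wild-type EpiLCs. Counts per gene do not separate the removed coding exons from the untranslated exons left in place. Tet2 and Tet3 levels were 274 and 304 and 252 and 237 without cytokines, and 186 and 293 and 63.8 and 86.1 with cytokines. Among the Tet genes, the counts of Tet3 fell (log2 fold change -1.68, SE 0.34, adjusted p = 0.0107), a call kept in 1 of the 4 fits with a library left out (adjusted p up to 0.118). The labels name PGCLC aggregates, and all 7 PGC markers were detected in each of the 4 libraries, with summed levels of 4885 and 4893 without and 5144 and 7006 with cytokines. The TKO libraries without cytokines, of both days, stood apart from all others of the study. They held transcripts of photoreceptors and lens, which are described with the genes that fell, and 44.6 to 69.4 normalised counts of Hprt, a gene that is defective in E14Tg2a and was at 11.7 or below in the 14 other libraries. Whether their RNA came from the labelled cells alone was not tested, and this bears on the genes called lower.

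More genes fell than rose with cytokines. A gene passed the test when its p from edgeR's quasi-likelihood test, adjusted over the 16582 genes by the method of Benjamini and Hochberg, was below 0.05, and it was called when its log2 fold change (plus minus no cytokines) was also beyond 2 in either direction. In the libraries with cytokines, 425 genes passed as higher (2.56% of those tested) and 506 as lower (3.05%). Of these, 40 were called higher (0.241%) and 268 called lower (1.62%), so 87.0% of the calls were lower. When libraries were scaled by their total counts alone, which moved the median log2 fold change of all genes from 0.03 to -0.49, 19 were called higher and 638 lower, and 97.1% of the calls were lower. The called genes differed in level, with median normalised counts over the 4 libraries of 112.7 for those higher and 37.4 for those lower. In 91 of the 268 lower genes, the libraries with cytokines held 3 counts or fewer together, and in 45 of these they held none. Single libraries weighed on the counts. Without replicate 1 or 2 of the group without cytokines, 9 and 11 genes were called higher and 131 and 100 lower. Without replicate 1 or 2 of the group with cytokines, these were 12 and 30 higher and 79 and 118 lower. A group left with 1 library was assumed to vary like the other groups.

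Several LIF and STAT3 targets rose, led by Socs3. Of 14 members tested, 7 passed as higher (Socs3, Bcl3, Klf4, Junb, Pim3, Tfcp2l1 and Icam1) and none as lower, and the median log2 fold change was 1.03 against 0.03 over all genes. Socs3, which encodes an inhibitor of JAK and STAT signalling (GRCm38 chromosome 11, 117966079 to 117970336), had levels of 126 and 109 without and 1937 and 1243 with cytokines. These groups lay far apart, and the log2 fold change of 3.77 (SE 0.32, adjusted p = 2.52e-05) was the highest of all genes taken for naming. Bcl3, a partner of NF-kappaB proteins, was at 84.0 and 80.8 without and 726 and 442 with cytokines (2.84, SE 0.37, adjusted p = 0.000785). Klf4, a naive pluripotency factor, was at 910 and 801 without and 4971 and 4352 with cytokines (2.46, SE 0.35, adjusted p = 0.00143). In both genes every library with cytokines was above every library without, an absence of overlap that held for 57.2% of all genes tested. Junb, a subunit of the transcription factor AP-1, rose from 164 and 208 to 739 and 542 (1.80, SE 0.27). Pim3, a serine/threonine kinase, rose from 1172 and 1335 to 4205 and 3127 (1.56, SE 0.20). Tfcp2l1, a naive pluripotency factor that STAT3 induces, rose from 2779 and 2819 to 6765 and 8740 (1.48, SE 0.34, adjusted p = 0.0207). Icam1, an adhesion molecule, rose from 465 and 521 to 1270 and 1017 (1.23, SE 0.33, adjusted p = 0.0399). Thus members at quite different starting levels moved by different amounts. The other members did not pass. Klf5 was at 2337 and 2848 without and 5459 and 3687 with cytokines (0.84, adjusted p = 0.0897), and Stat3 itself at 515 and 598 without and 805 and 842 with cytokines (0.58, adjusted p = 0.210). Pim1, Gbx2, Cish, Fgl2 and Socs2 had log2 fold changes between -0.58 and 0.54. Osmr had 4 or 5 counts in each library and was not tested. With any of the 4 libraries left out, 5 of the 7 passed, and the 2 that did not were Tfcp2l1, with adjusted p between 0.0629 and 0.150, and Icam1, between 0.0758 and 0.255.

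**Figure D1:**
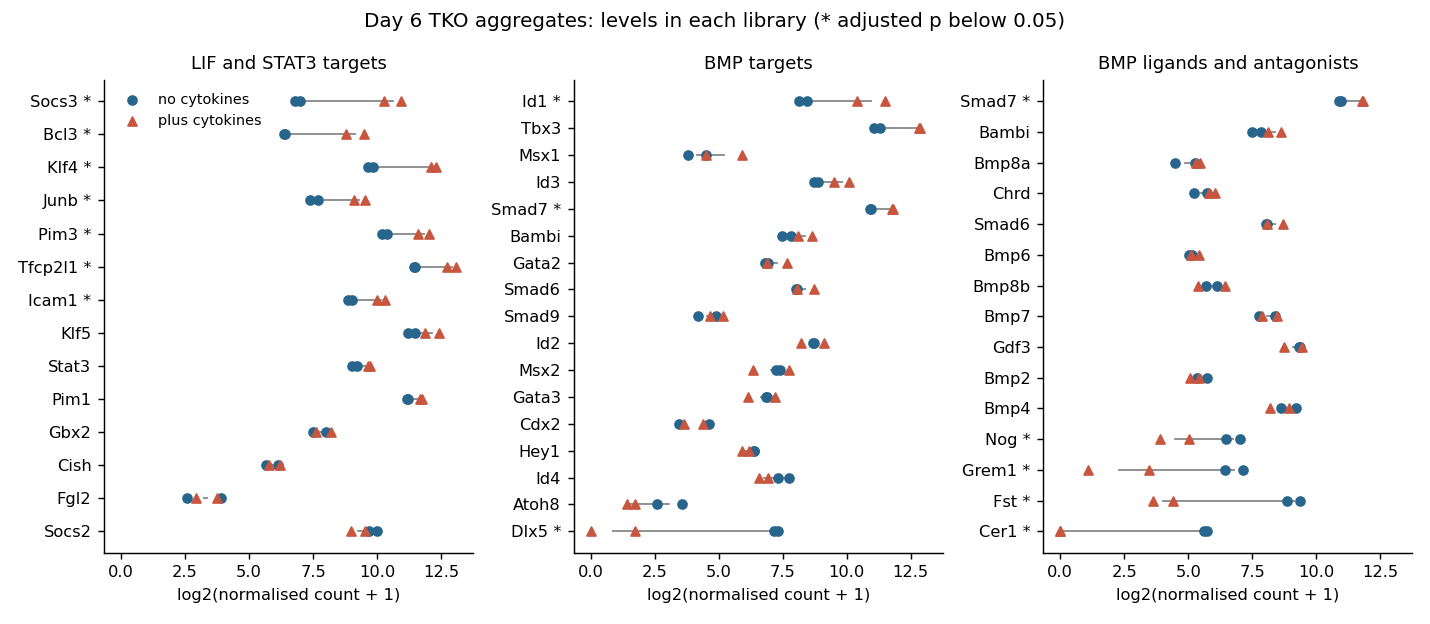
Levels of LIF and STAT3 targets, BMP targets, and BMP ligands and antagonists in the 4 day 6 TKO libraries, as log2(normalised count + 1). Circles are libraries without and triangles libraries with cytokines, grey lines join the group means, and stars mark genes that passed the test. Socs3, Bcl3 and Klf4 show the widest gaps among LIF targets, and Id1 among BMP targets that rose, while the antagonists Fst, Grem1, Nog and Cer1 lie lower with cytokines.

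Sequences before the start sites of the genes that led the comparison were searched for motifs of the factors downstream of these cytokines. Motifs searched on both strands were TTCNNNGAA, bound by STAT proteins, GGCGCC, bound by SMAD1 and SMAD5, and CAGAC, bound by SMAD4, in windows from 250 bases before to 50 bases after each start (RefSeq, GRCm38.p6). The table held promoters for 25 of 35 genes (the LIF and BMP targets that passed and the 15 highest and 15 lowest genes), 26 in all. TTCNNNGAA was in 2 of them (Socs3 and Icam1), against 8.3% of all 32851 promoters. GGCGCC was in 4 (Socs3, Aqp3, Bcl3 and Tfcp2l1), against 11.9%, and CAGAC in 12, against 49.6%. Among the 7 LIF target promoters, 2 held TTCNNNGAA, 3 held GGCGCC and 2 held CAGAC. Such matches describe letters in these windows and are not evidence of binding. The 250 bases before the start are shown 5′ to 3′ on the gene's strand for Socs3 (chr11:117969367-117969616, minus strand), for Icam1 (chr9:21015690-21015939, plus strand) and for Bcl3 (chr7:19822756-19823005, minus strand), since these are the LIF targets with a STAT motif and the one with the most motifs. The Socs3 window lies inside the span given above for that gene, so the start used is not the outer end of that span. Capitals mark TTCNNNGAA and GGCGCC matches on either strand, and in Bcl3 also CAGAC matches.
Socs3: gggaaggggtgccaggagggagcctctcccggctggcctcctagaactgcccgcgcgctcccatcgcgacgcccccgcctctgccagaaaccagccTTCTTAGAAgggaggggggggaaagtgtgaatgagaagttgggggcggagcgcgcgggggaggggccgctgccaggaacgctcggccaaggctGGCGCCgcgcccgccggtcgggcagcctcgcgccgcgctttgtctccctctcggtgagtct
Icam1: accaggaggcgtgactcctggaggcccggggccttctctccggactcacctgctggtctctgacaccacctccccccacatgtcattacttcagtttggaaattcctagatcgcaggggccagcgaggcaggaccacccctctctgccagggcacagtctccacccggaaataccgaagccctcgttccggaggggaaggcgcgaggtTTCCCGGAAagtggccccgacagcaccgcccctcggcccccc
Bcl3: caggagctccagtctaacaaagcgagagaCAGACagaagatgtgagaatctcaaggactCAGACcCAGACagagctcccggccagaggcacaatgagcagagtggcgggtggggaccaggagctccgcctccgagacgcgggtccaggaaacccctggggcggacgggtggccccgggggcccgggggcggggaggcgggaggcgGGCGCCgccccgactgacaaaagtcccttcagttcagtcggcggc
The capitals show the STAT motif of Socs3 154 bases and its GGCGCC 61 bases before the start, the STAT motif of Icam1 42 bases before the start, and the GGCGCC of Bcl3 45 bases before the start.

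BMP targets moved less together. Of 17 tested, Id1 and Smad7 passed as higher and Dlx5 as lower, and the median log2 fold change was 0.37. Id1, an inhibitor of bHLH transcription factors and a direct SMAD target, was at 279 and 350 without and 2871 and 1340 with cytokines (2.76, SE 0.63, adjusted p = 0.0218). Its groups did not overlap, but the 2 libraries with cytokines differed by more than those without. The call held without replicate 2 of the group with cytokines (adjusted p = 0.0345) and was lost without replicate 1 of that group (0.172) and without replicate 1 (0.189) or 2 (0.128) of the other. Smad7, an inhibitory SMAD, rose from 1902 and 1966 to 3618 and 3511 (0.90, SE 0.25, adjusted p = 0.0492), and lost the call with any library left out (adjusted p between 0.112 and 0.256). Id3 was at 417 and 467 without and 1099 and 723 with cytokines (1.06, SE 0.62, adjusted p = 0.328), and Id2 at 420 and 414 without and 548 and 295 with cytokines (0.03, adjusted p = 0.987). Tbx3, a T-box factor, was at 2524 and 2163 without and 7223 and 7322 with cytokines (1.65, SE 0.57, adjusted p = 0.0997). Levels of Id3 and Tbx3 did not overlap between the groups, yet neither passed, and the same absence of overlap held for 57.2% of all genes tested. Dlx5, a homeobox gene of bone and ear, had levels of 141 and 160 without and 0 and 2.30 with cytokines, a ratio of 109.9 (95% exact counting interval 30.1 to 912.4). Dlx5 was among the genes, described with those that fell, whose levels set the TKO libraries without cytokines apart. Its lowest level in those 4 libraries (days 2 and 6) was 67.5, against at most 4.97 in the 14 others. Whether their RNA came from the labelled cells alone was not tested. Without replicate 1 of the group with cytokines the adjusted p of Dlx5 was 0.0501.

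Some extracellular antagonists of BMP and related ligands fell. In the list of 15 BMP ligands, antagonists and inhibitors tested, Nog, Grem1, Fst and Cer1 passed as lower and only Smad7 as higher, and the median was 0.10. Fst, the activin antagonist follistatin (chromosome 13, 114452262 to 114458989), was at 465 and 659 without and 20.2 and 11.5 with cytokines (-5.18, SE 0.78, adjusted p = 0.00195). Grem1, a BMP antagonist, was at 86.1 and 139 without and 10.1 and 1.15 with cytokines (-4.43, SE 0.74, adjusted p = 0.00627). Nog, which encodes noggin, was at 87.2 and 130 without and 31.9 and 13.8 with cytokines (-2.26, SE 0.56, adjusted p = 0.0300). Every library without cytokines exceeded every library with them for these genes, and groups did not overlap for 57.2% of all genes tested. Cer1, an antagonist of Nodal and BMP, was at 47.4 and 51.7 without cytokines and had no counts with them, at least 24.1-fold lower (floor of 3 counts over the group, adjusted p = 0.00783). The ligands did not pass. Bmp4 was at 394 and 588 without and 480 and 290 with cytokines (-0.34), and Gdf3 at 644 and 661 without and 694 and 422 with cytokines (-0.21). Chrd, a further antagonist, was at 52.8 and 36.6 without and 65.5 and 55.1 with cytokines (0.44, adjusted p = 0.540). Fst passed with each library left out, with adjusted p of 0.00681 to 0.0373. Grem1 failed without replicate 2 of the group without cytokines (0.0607), Nog failed with any library left out (0.0722 to 0.181), and Cer1 passed in 1 of the 4 fits (0.0465 to 0.0658). Grem1 was 1 of the 75 genes, described with the genes that fell, whose levels set the TKO libraries without cytokines apart from all others, and Fst, Nog and Cer1 were not. Summed markers of fibroblasts (2632 and 2606 without, 919 and 277 with cytokines) and of muscle and heart (657 and 953 without, 84.0 and 72.3 with cytokines) were lower in the same libraries, and their part in these differences was not tested.

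Receptors and ERK pathway genes showed few differences. None of 13 cytokine receptor genes passed (median -0.17). Kit, the SCF receptor, was at 1766 and 1599 without and 2113 and 3368 with cytokines (0.72, SE 0.47, adjusted p = 0.395), Lifr at 863 and 950 without and 1270 and 1386 with cytokines (0.57, adjusted p = 0.453), and Egfr at 104 and 121 without and 65.5 and 104 with cytokines (-0.38, adjusted p = 0.719). Of 20 genes of the KIT and EGF pathway and its ERK feedback, 1 passed (median -0.10), Hbegf, an EGF family ligand, which rose from 95.8 and 85.8 to 227 and 172 (1.15, SE 0.31, adjusted p = 0.0445). The feedback inhibitor Dusp6 was at 1300 and 1333 without and 1001 and 740 with cytokines (-0.58, adjusted p = 0.165), and Spry4 at 730 and 834 without and 1801 and 1076 with cytokines (0.89, adjusted p = 0.177). Among 16 immediate early genes, Junb, Jund and Ier2 passed as higher (median 0.29). Ier2 rose from 960 and 1156 to 2637 and 1827 (1.09, SE 0.22, adjusted p = 0.0105), and Jund from 1703 and 1971 to 3632 and 2675 (0.80, SE 0.19, adjusted p = 0.0284). With a library left out, Hbegf failed in each of the 4 fits (0.0704 to 0.266), and Ier2 and Jund in all but 1 of them (up to 0.134 and 0.257).

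Naive pluripotency genes had positive fold changes in 13 of 14 members (median 0.64, against 0.03 over all genes). Of these, 3 passed as higher (Klf4, Tfcp2l1 and Tcl1). Tcl1, a coactivator of AKT, rose from 688 and 635 to 1525 and 1287 (1.10, SE 0.29, adjusted p = 0.0369). Nanog was at 7386 and 6303 without and 10166 and 9283 with cytokines (0.52, adjusted p = 0.258), Esrrb at 4014 and 4397 without and 6842 and 6615 with cytokines (0.69, adjusted p = 0.541), and Prdm14 at 504 and 602 without and 1080 and 1235 with cytokines (1.08, adjusted p = 0.0732). None of these 3 passed, and the absence of overlap between their groups held for 57.2% of all genes tested. Of 10 core pluripotency genes (median 0.19), Tdgf1, a Nodal coreceptor, rose from 5082 and 4636 to 11453 and 11117 (1.23, SE 0.32, adjusted p = 0.0354), and Lin28a, an RNA-binding protein that blocks let-7 maturation, fell from 3531 and 4742 to 1806 and 883 (-1.61, SE 0.31, adjusted p = 0.00799). Pou5f1 was at 7197 and 9948 without and 17206 and 10514 with cytokines (0.71, adjusted p = 0.335), and Sox2 at 6785 and 6661 without and 5767 and 5583 with cytokines (-0.23, adjusted p = 0.691). With any library left out Tcl1 (0.0774 to 0.218) and Tdgf1 (0.0919 to 0.210) failed, and Lin28a failed without replicate 2 of either group (up to 0.0801).

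Genes of the formative and primed states of pluripotency, which mark EpiLCs and the epiblast after implantation, had a median log2 fold change of -1.11, with 5 of 12 passed as lower and none as higher. Fgf5, a growth factor of the epiblast (chromosome 5, 98254184 to 98277033), was at 323 and 317 without and 10.1 and 16.1 with cytokines (-4.54, SE 0.66, adjusted p = 0.00176). Lef1, a transcription factor of Wnt signalling, was at 366 and 517 without and 60.5 and 44.8 with cytokines (-3.07, SE 0.48, adjusted p = 0.0028). Cdh2, which encodes N-cadherin, was at 378 and 366 without and 118 and 34.4 with cytokines (-2.33, SE 0.55, adjusted p = 0.0255). In all 3, both libraries without cytokines were above both with them, while groups did not overlap for 57.2% of all genes tested. Pou3f1 fell from 226 and 245 to 68.9 and 65.4 (-1.80, SE 0.33, adjusted p = 0.00627), and Dnmt3a, a de novo DNA methyltransferase, from 2538 and 2934 to 1389 and 1160 (-1.09, SE 0.28, adjusted p = 0.0369). Otx2, a formative regulator, was at 1026 and 972 without and 593 and 662 with cytokines (-0.65, SE 0.84, adjusted p = 0.689), and Dnmt3b at 1611 and 2269 without and 1136 and 914 with cytokines (-0.90, adjusted p = 0.0640). Fgf5 and Lef1 passed with each library left out (highest adjusted p 0.0336 and 0.0414). Pou3f1 failed in 2 of the 4 fits (up to 0.0602), Cdh2 in 3 (up to 0.143) and Dnmt3a in all (0.128 to 0.191).

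Genes of the pathways that act on these states were tested as separate lists. Among 14 Wnt targets (median -1.03), Lef1, Rnf43 and Ccnd1 passed as lower. Among 12 FGF ligands and receptors (median -0.82), Fgf5 and Fgfr2 passed as lower, Fgfr2 from 394 and 504 to 134 and 154 (-1.62, SE 0.28, adjusted p = 0.00482). Of 11 Nodal pathway genes (median -0.21), 2 passed as higher (Tdgf1 and Smad7) and 2 as lower, Cer1 among them. Cyp26a1, which degrades retinoic acid, was the sole one of 16 retinoic acid genes to pass, as lower (median -0.11). Of 11 genes of the DNA methylation machinery (median -0.32), Dnmt3a and Tet3 passed as lower. The open reading frame of Tet3 had been cut out in these cells, and the source of its counts was not tested. At day 2, 2 of the 3 Tet genes passed as lower with cytokines (median -1.36). Cyclins went both ways among 28 cell cycle genes (median 0.24), with Ccnd3 and Aurkb higher and Ccnd1 and Ccnd2 lower. Ccnd1 fell from 925 and 1366 to 509 and 333 (-1.43, SE 0.29, adjusted p = 0.0105) and Ccnd2 from 561 and 611 to 163 and 80.4 (-2.28, SE 0.56, adjusted p = 0.0284), while Ccnd3 rose from 2669 and 2932 to 6269 and 5497 (1.09, SE 0.27, adjusted p = 0.0278). No gene of these lists outside Lef1 and Fgf5 passed with each library left out, and the highest adjusted p of the others were between 0.0619 (Fgfr2) and 0.260 (Rnf43).

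Germ cell genes differed little between the groups. Of 16 early PGC genes (median 0.32), Elf3 passed as higher and Prdm1 and Ifitm1 as lower. Prdm1, which encodes BLIMP1, a repressor needed for PGC specification (chromosome 10, 44437174 to 44528558), was at 422 and 483 without and 111 and 208 with cytokines (-1.48, SE 0.34, adjusted p = 0.0219). Ifitm1, a membrane protein gene expressed in early PGCs, was at 944 and 877 without and 445 and 457 with cytokines (-0.999, SE 0.20, adjusted p = 0.0112). Elf3 rose from 1275 and 1313 to 2463 and 2712 (1.02, SE 0.23, adjusted p = 0.0198). Thus the groups did not overlap for any of the 3, as for 57.2% of all genes tested, and 2 of these genes were lower with cytokines. Tfap2c was at 1653 and 1774 without and 1424 and 1643 with cytokines (-0.14, SE 0.22, adjusted p = 0.748), Nanos3 at 31.2 and 22.7 without and 35.3 and 31.0 with cytokines (0.30, SE 0.43), and Dppa3 at 422 and 317 without and 228 and 411 with cytokines (-0.19, SE 0.38). For these 3 the groups overlapped or nearly met. Among 29 late germline genes (median 0.21), the near-identical testis tubulins Tuba3a and Tuba3b passed as higher, between which the counting could have divided reads. Tuba3a was at 1524 and 1781 without and 4564 and 4135 with cytokines (1.41, SE 0.26, adjusted p = 0.00699), Dazl at 844 and 650 without and 905 and 2290 with cytokines (1.11, adjusted p = 0.148), and Ddx4 at 410 and 413 without and 306 and 464 with cytokines (-0.08). Elf3 (0.0829 to 0.151), Ifitm1 (0.0629 to 0.102) and Tuba3b (0.120 to 0.287) failed with any library left out, and Prdm1 and Tuba3a in 3 of the 4 fits (up to 0.200 and 0.0994).

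**Figure D2:**
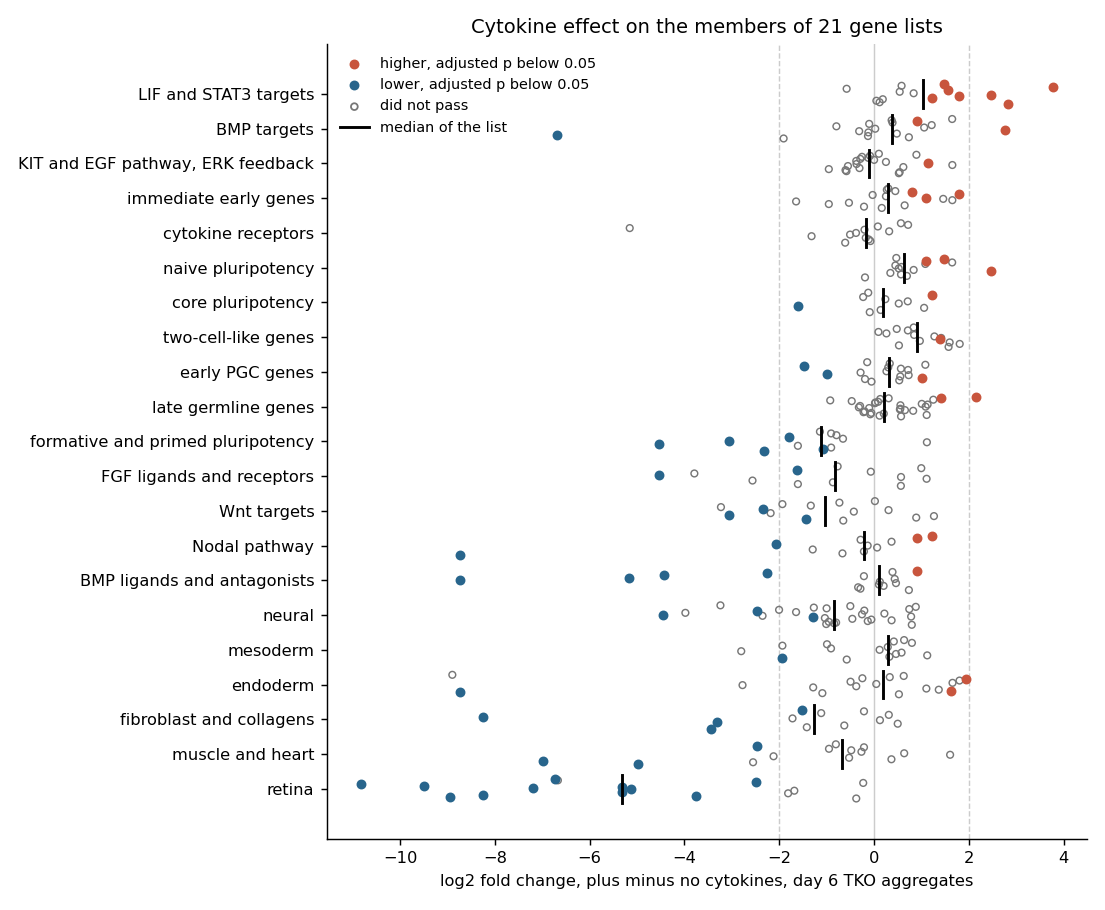
Log2 fold changes (plus minus no cytokines) in day 6 TKO aggregates of the members of 21 gene lists, 1 point per gene. Filled points passed the test, open points did not, and black bars are list medians. LIF targets lie to the right with a median of 1.03 and retina genes far to the left with -5.31, while germ cell lists centre near 0. Genes with few counts with cytokines are drawn at their fitted value, which depends on the prior count.

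Apart from these lists, the 15 highest genes included Aqp3, Tgm2 and Inhbb. Aqp3, a channel for water and glycerol (chromosome 4, 41092724 to 41098183), was at 525 and 564 without and 4599 and 3273 with cytokines (2.87, SE 0.25, adjusted p = 2.52e-05). Tgm2, tissue transglutaminase, was at 198 and 143 without and 934 and 1218 with cytokines (2.67, SE 0.35, adjusted p = 0.000785). Both stood well apart and passed with each library left out. Inhbb, a subunit of activin B, was at 67.8 and 138 without and 885 and 611 with cytokines (2.89, SE 0.74, adjusted p = 0.0341), and Kiss1, the precursor of kisspeptin, at 6.46 and 12.6 without and 84.0 and 101.0 with cytokines (3.30, SE 0.70, adjusted p = 0.0236). Alppl2, an alkaline phosphatase gene, was at 37.7 and 48.0 without and 294 and 448 with cytokines (3.13, SE 0.58, adjusted p = 0.00908), and Vax2, a homeobox gene, at 47.4 and 40.4 without and 286 and 254 with cytokines (2.63, SE 0.54, adjusted p = 0.0115). Trim43a, a gene of the preimplantation embryo, was at 34.5 and 48.0 without and 282 and 358 with cytokines (2.97, SE 0.72, adjusted p = 0.0288). The rest of the 15 besides Socs3, Bcl3, Klf4 and Id1 were Bhmt (3.07), AU015228 (2.65), Slc13a5 (2.48) and Padi4 (2.47). Alppl2 and Vax2 passed in 1 of the 4 fits with a library left out (up to 0.118 and 0.122), and Inhbb, Kiss1, Trim43a, Bhmt, AU015228, Slc13a5 and Padi4 in none (0.0519 to 0.275).

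Betaine and embryo genes recurred among the called genes, and 2 lists drawn up after the fold changes had been seen describe them. Bhmt, betaine-homocysteine methyltransferase, was at 31.2 and 6.31 without and 97.4 and 222 with cytokines (adjusted p = 0.0320). Dmgdh, which oxidises dimethylglycine, the product of that step, was at 24.8 and 29.0 without and 116 and 162 with cytokines (2.38, SE 0.47, adjusted p = 0.00981). Bhmt2 and Pemt also passed (2.21 and 1.79), 4 of 16 betaine and methionine cycle genes with none lower. Of 17 preimplantation embryo genes, 6 passed as higher (Trim43a, Pramel6, Crxos, Gm13128, Gm2027 and Tex19.2) and none as lower. Pramel6 was at 157 and 215 without and 670 and 693 with cytokines (1.89, SE 0.37, adjusted p = 0.0132). All 14 two-cell-like genes tested, which mark a rare state of ESCs resembling the early embryo, had positive fold changes (median 0.91, against 0.03 over all genes). Of these, 1 passed, Usp17lb, from 503 and 772 to 1636 and 1670 (1.39, SE 0.30, adjusted p = 0.0203). Zscan4c, a defining gene of that state, was at 819 and 885 without and 1376 and 1389 with cytokines (0.71, adjusted p = 0.365). At day 2 the median of the two-cell-like genes was -0.38, and none passed in either direction. Many members of these families are close copies, between which reads could have been divided or dropped. None of these genes passed with each library left out, and the highest adjusted p were between 0.107 and 0.278.

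Retina genes were among those that fell furthest. Of 16 tested, 11 passed as lower and none as higher, with a median of -5.31 (-4.94 with genes of few counts set at their bound). Gnat1, the rod transducin, was at 729 and 1007 without and 1.68 and 3.44 with cytokines (-8.25, SE 0.62, adjusted p = 7.32e-06). Rbp3, a retinoid-binding protein of the retina, was at 551 and 835 without and 8.40 and 6.89 with cytokines (-6.49, SE 0.53). Prph2, a structural protein of photoreceptor discs, was at 334 and 502 without and 11.8 and 9.18 with cytokines (-5.31, SE 0.66). Both libraries without cytokines carried these transcripts and both with cytokines were near 0. The transcription factors that specify photoreceptors were among them. Nrl was at 96.9 and 133 without and 3.36 and 2.30 with cytokines (-5.31, SE 0.70), and Crx at 79.7 and 139 without and 3.36 and 11.5 with cytokines (-3.76, SE 0.83, adjusted p = 0.0175). The rod genes Grk1, Rp1, Pde6g and Sag were among the 15 lowest genes too, with levels of 91.5 to 358 without and 0 to 4.59 with cytokines. All 6 photoreceptor markers passed as lower. With a library left out, 8 to 10 of the 11 passed. Crx failed in all 4 fits (0.0579 to 0.165) and Cnga1 and Rom1 in 3 (up to 0.0946 and 0.0630).

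Genes of lens, muscle and connective tissue accompanied them. Crybb2, a lens crystallin, was at 129 and 193 without cytokines and had no counts with them, at least 77.5-fold lower. In a list of crystallins drawn up after the values had been seen, 7 of 15 passed as lower, of which Crybb2 passed with each library left out, Cryaa in 2 of the 4 fits (up to 0.0661), and the others in none (0.0558 to 0.218). Actc1, cardiac actin (chromosome 2, 114047282 to 114052875), was at 551 and 851 without and 0 and 9.18 with cytokines (-6.99, SE 0.83, adjusted p = 0.000479), and Acta1, skeletal actin, at 1016 and 1384 without and 60.5 and 18.4 with cytokines (-4.98, SE 0.60, adjusted p = 0.000502). Ankrd1, a cofactor of heart muscle, at 164 and 254 without and 0 and 3.44 with cytokines, was also among the 15 lowest genes, as were Aldoart2 and Csl, with levels of 86.1 to 429 without and 0 to 6.89 with cytokines. With Tnnt3, Actc1 and Acta1 were the 3 of 14 muscle and heart genes that passed (median -0.67). Of 12 fibroblast and collagen genes (median -1.27), Col1a1, Col5a2, Dcn and Vim passed as lower. Col1a1 was at 1556 and 2224 without and 186 and 161 with cytokines (-3.43, SE 0.59, adjusted p = 0.00479), and Dcn at 34.5 and 36.6 without cytokines and had no counts with them, at least 17.3-fold lower. The levels of all these genes were thus high in both libraries without cytokines. Actc1, Acta1 and Col5a2 passed with each library left out, Col1a1 and Dcn in 2 of the 4 fits (up to 0.0575 and 0.0590), Vim in 1 (up to 0.191) and Tnnt3 in none (0.127 to 0.160).

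These genes were set apart from the remaining called genes by their levels in other libraries. In 75 of the 268 genes called lower, the lowest of the 4 TKO libraries without cytokines (days 2 and 6) was more than 2 times the highest of the 14 other libraries of the study, as it was in 93 of all genes tested. They included Gnat1, Nrl, Crybb2 and Col1a1. Actc1 and Acta1 were not among them, since wild-type cells without cytokines at day 2 had levels of 711 and 1120 for Actc1 and 1975 and 1887 for Acta1. Levels of the 75 genes in replicate 2 were a median of 1.498 times those in replicate 1 without cytokines (quartiles 1.31 and 1.65), against 1.18 (0.959 and 1.45) for the other 193. Hprt and Xist, chosen after their values were seen, showed the same contrast. Hprt, a purine salvage enzyme whose gene is defective in E14Tg2a, was at 52.8 and 69.4 without and 3.36 and 8.04 with cytokines, with a highest level of 11.7 in the 14 other libraries (-3.31, SE 0.65, adjusted p = 0.00907). Xist, the noncoding RNA of X inactivation, was at 623 and 538 without and 138 and 177 with cytokines (-1.86, SE 0.33, adjusted p = 0.00591), against at most 228 in the 14 other libraries. Hprt and Xist passed in 2 of the 4 fits with a library left out (up to 0.106 and 0.0780). The summed markers of fibroblasts and of muscle and heart, given with the BMP antagonists, were lower with cytokines too. None of the 4 blood markers had enough counts to be tested, and Hba-a1 and Hbb-bt had none in any of the 4 libraries. In bulk samples, fewer cells of a type and less RNA per cell cannot be told apart. Whether RNA of another source was present in the TKO libraries without cytokines was not tested either. With the 93 genes left out of the table, an alternative chosen after seeing the data, 39 genes were called higher and 177 lower. The 14 other libraries include the TKO libraries with cytokines at day 6, so lower levels with cytokines were part of the choice. Fewer lower calls without these genes follow from that choice.

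**Figure D3:**
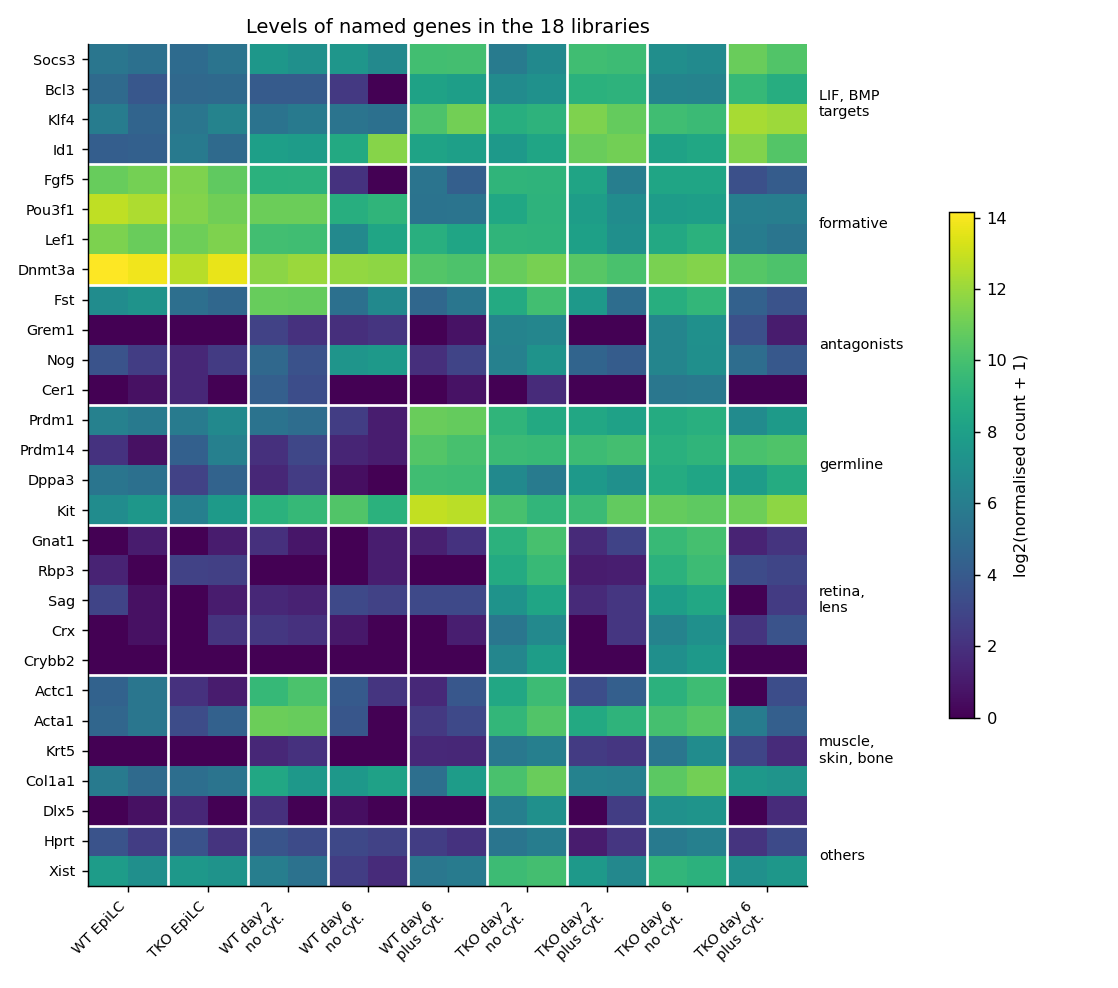
Levels of named genes, as log2(normalised count + 1), in the 18 libraries (columns, 2 per group). Retina and lens genes, Krt5 (a keratin), Dlx5 and Hprt are high in the 4 TKO libraries without cytokines and low in the other 14, whereas Actc1 and Acta1 are high in wild-type cells without cytokines at day 2 as well.

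Other lineage lists held few genes that passed. Among 27 neural genes (median -0.84), Pax6, Neurod4 and Map2 were lower, Pax6, a regulator of eye and brain, at 88.3 and 111 without and 8.40 and 25.3 with cytokines (-2.46, SE 0.52, adjusted p = 0.0134). Slc1a2 was 1 of 2 lower genes among 11 of astrocytes and oligodendrocytes (median -0.04), Foxc1 among 15 mesoderm genes (median 0.29) and Tfap2a among 11 trophoblast and simple keratin genes (median -0.12). Tfap2a, a factor of trophoblast, neural crest and skin, was at 440 and 591 without and 85.7 and 76.9 with cytokines (-2.65, SE 0.33, adjusted p = 0.000635). Of 18 endoderm genes (median 0.19), Cer1 was lower and the basement membrane genes Lama1 and Col4a1 were higher, Lama1 at 228 and 174 without and 751 and 770 with cytokines (1.93, SE 0.40, adjusted p = 0.0120). None of 8 blood and endothelium genes passed (median -0.13). Zeb2, a repressor of epithelial genes, fell from 277 and 328 to 65.5 and 41.3 (-2.51, SE 0.35, adjusted p = 0.00119), and with Cdh2, Esrp1 and Grhl2 these were the 4 of 20 cadherin and epithelial genes that passed (median -0.30). Tfap2a, Zeb2 and Slc1a2 passed with each library left out. The others named here failed in at least 2 of the 4 fits, with highest adjusted p between 0.0658 (Cer1) and 0.263 (Esrp1).

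Several pathways showed almost no gene that passed. There were none among 20 Hox genes (median -0.16), 15 p53 targets and apoptosis genes (median 0.13) and 29 hypoxia and glycolysis genes (median 0.18). Samd9l was lower among 17 interferon-stimulated genes (median 0.06), Sc5d and 1 other among 20 cholesterol synthesis genes (median -0.13), and Mest, Rian and Gnas among 27 imprinted genes (median -0.21). Of 21 genes of the unfolded protein and amino acid stress response (median 0.16), Asns was higher and Slc7a11 lower. Rn45s was the 1 of 8 structural noncoding RNAs that passed, as higher (1.57, SE 0.37, adjusted p = 0.0244). With a library left out, Slc7a11 failed in 2 of the 4 fits (up to 0.135), Samd9l in 3 (up to 0.0934) and Sc5d, Mest, Rian, Gnas, Asns and Rn45s in all (highest 0.163 to 0.353).

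The effect at day 2 was measured in libraries that the day 6 comparison does not share. At day 2, 340 genes passed as higher (2.05%) and 409 as lower (2.47%), of which 26 and 236 were called. Of the 40 genes called higher at day 6, 36 had a positive log2 fold change at day 2 and 10 passed as higher, with medians of 2.48 at day 6 and 1.32 at day 2. Of the genes called lower, the 75 set apart above were chosen by day 2 levels too, so that their day 2 effect is fixed by the choice and is not given. Of the other 193, 191 had a negative log2 fold change at day 2 and 92 passed as lower. Their medians were -3.07 at day 6 and -2.17 at day 2, against 0.03 and -0.03 over all genes. LIF targets had 5 of 14 passed as higher at day 2 with a median of 0.83, and retina genes 12 of 16 passed as lower with -5.91. Socs3 was at 58.1 and 106 without and 910 and 828 with cytokines at day 2 (3.43, SE 0.32), and Aqp3 at 387 and 358 without and 2875 and 2341 with cytokines (2.82). Thus both stood as far apart at day 2 as at day 6.

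Few or no genes differed between the days by the test of the difference itself. In edgeR's quasi-likelihood test of the day 6 minus the day 2 effect, 0 genes passed (0%; lowest adjusted p 0.303), whereas 717 had an unadjusted p below 0.05. DESeq2's Wald test gave 700 genes at an unadjusted p below 0.05 and 3 at an adjusted p below 0.05, Nelfa, Tmppe and Lix1l, named here because the count was small. The difference was 0.34 (SE 0.43) for Socs3, 0.05 (SE 0.33) for Aqp3, 0.30 (SE 0.47) for Klf4 and -0.30 (SE 0.85) for Id1. Some estimates were larger. Fgf5 was at 601 and 577 without and 308 and 65.8 with cytokines at day 2, and its difference was -2.91 (SE 0.83). Acta1 had a difference of -4.02 (SE 0.75) and Lin28a one of -1.11 (SE 0.42). Their adjusted p were 0.956 for Fgf5, 0.512 for Acta1 and 1 for Lin28a, so that these data leave a wide range of differences for each.

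**Figure D4:**
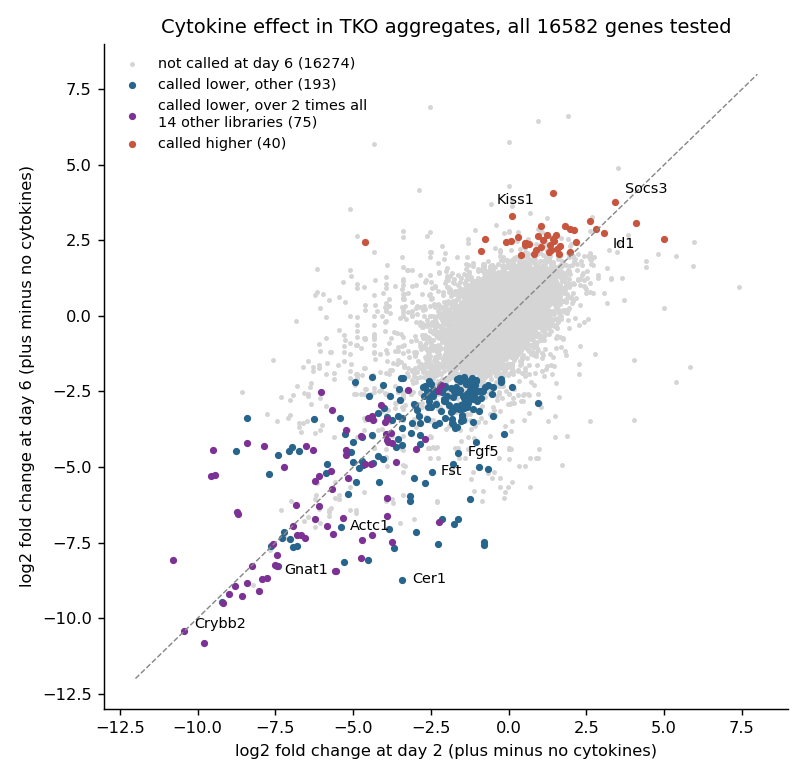
Log2 fold changes with cytokines in TKO aggregates at day 2 (horizontal) and day 6 (vertical) for the 16582 genes tested. Red points are the 40 genes called higher at day 6, purple points the 75 called lower whose TKO libraries without cytokines were all more than 2 times the 14 other libraries, and blue points the other 193 called lower. The dashed line marks equal effects. Purple genes were chosen by levels at both days, which places them low on both axes, and the blue points have medians of -2.17 at day 2 and -3.07 at day 6.

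Cytokine effects differed between TKO and wild-type cells for many genes. The difference between the TKO and the wild-type effect at day 6 passed as higher in TKO cells for 3474 genes (21%) and as lower for 3641 (22%), of which 1748 and 1960 also differed by more than 2 on the log2 scale. Since sorting was described for wild-type cells with cytokines alone, genotype and sorting cannot be told apart here. Socs3 rose by 3.77 in TKO and 2.83 in wild-type cells, and the difference of 0.94 (SE 0.42) did not pass (adjusted p = 0.0817), although it passed without replicate 2 of wild-type cells without cytokines (1.23, adjusted p = 0.0170) or of TKO cells with cytokines (1.22, adjusted p = 0.0385). Klf4 had log2 fold changes of 2.46 in TKO and 5.44 in wild-type cells (difference -2.98, adjusted p = 0.000264), Tfcp2l1 of 1.48 and 7.67 (difference -6.18) and Aqp3 of 2.87 and 7.90 (difference -5.03). Thus these genes rose in both genotypes, with smaller log2 fold changes in TKO cells. Without cytokines, Klf4 was at 910 and 801 in TKO and 43.1 and 35.9 in wild-type cells. With cytokines, Klf4 was at 4971 and 4352 in TKO and 1185 and 2212 in wild-type cells. Aqp3 was at 525 and 564 without and 4599 and 3273 with cytokines in TKO cells. In wild-type cells Aqp3 was at 3.627 and 1.158 without and 609 and 784 with cytokines. Levels of both genes were thus higher in TKO cells in either condition. Id1 had log2 fold changes of 2.76 in TKO and -2.57 in wild-type cells (difference 5.33, adjusted p = 0.000224), but its wild-type levels were 383 and 3000 without and 298 and 254 with cytokines. Without replicate 2 of wild-type cells without cytokines, the wild-type value was -0.42 (adjusted p = 0.320) and the difference 3.18 (adjusted p = 2.84e-05), so that the wild-type fall rested on 1 library. Prdm1 fell by 1.48 on the log2 scale in TKO cells and rose by 8.91 in wild-type cells (difference -10.39). Levels without cytokines differed as well, since Prdm1 was at 422 and 483 in TKO and 4.99 and 1.158 in wild-type aggregates. The 5 lowest called differences by fitted value were those of Dppa2, Lefty1, Dppa3, Slco4c1 and Platr22, none of which passed in the TKO comparison. In wild-type cells Dppa2, Slco4c1 and Platr22 had no counts without cytokines and were at least 470.2-fold, 291-fold and 98.1-fold higher with them (floor of 3 counts over the group), and Dppa3, with 1 count without cytokines, had a ratio of 2718 (95% exact counting interval 488 to 107400). Fitted values of such genes depend on the prior count, and so does their order. Among the 5 highest were those of the homeobox genes Uncx and Otp, the forkhead gene Foxb1 and somatostatin, Sst. These had at most 13.8 normalised counts in the 4 TKO libraries. Replicates differed for some of them. Otp was at 2805 and 88.0 in wild-type cells without cytokines, and Foxb1 at 13.4 and 0 in TKO cells with cytokines. In wild-type cells Uncx, Foxb1 and Sst had no counts with cytokines and were at least 743-fold, 259-fold and 242-fold lower. Of the LIF targets, 8 of 14 passed with a lower and 1 with a higher log2 fold change in TKO cells. For the BMP targets these were 3 of 17 with a lower and 5 with a higher one. Some BMP target differences depended on 1 wild-type library. Without replicate 1 or 2 of wild-type cells without cytokines, the difference was 7.42 or 0.89 for Msx1. It was 4.24 or 1.17 for Id3, and 4.49 or 3.47 for Id2.

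**Figure D5:**
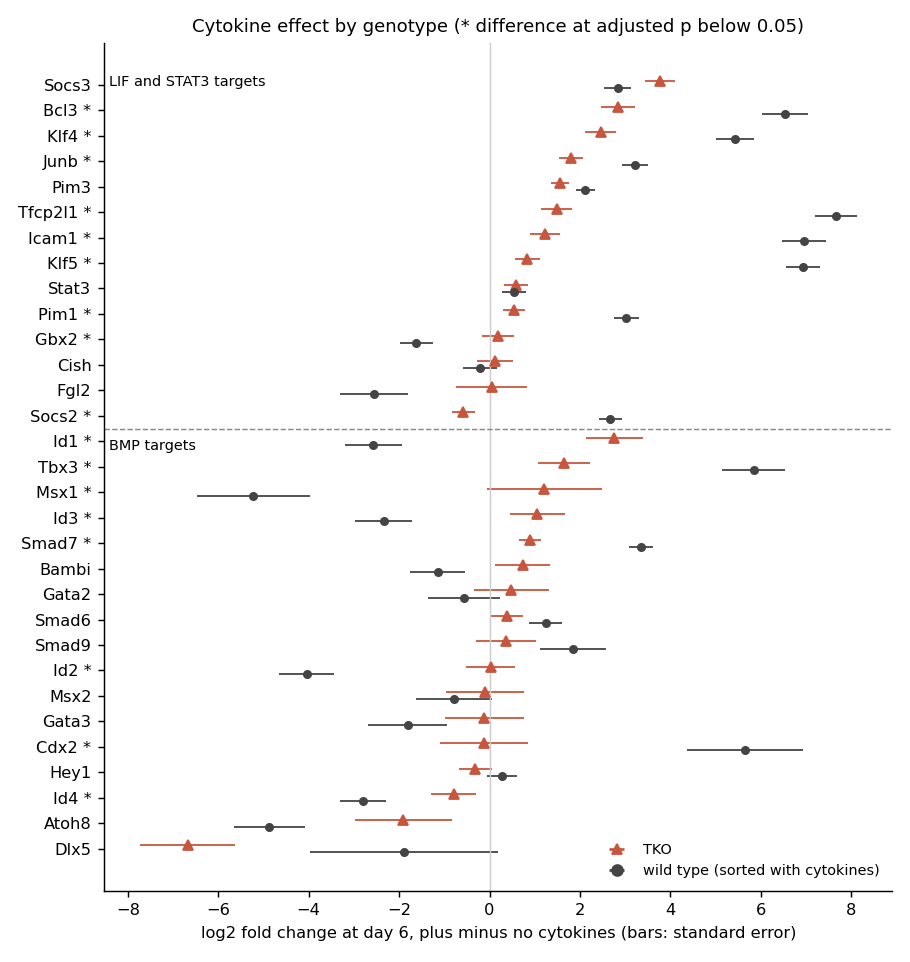
Log2 fold changes (plus minus no cytokines, day 6) of LIF and STAT3 targets and BMP targets in TKO (triangles) and wild-type cells (circles, sorted with cytokines), with bars of 1 standard error and stars where the difference passed the test. Socs3 lies at 3.77 in TKO and 2.83 in wild-type cells, Tfcp2l1, Icam1 and Klf5 lie further right in wild-type cells, and Id1 lies on opposite sides of 0, where its wild-type value rests on 1 library.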

How the data were processed

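RNA was depleted of ribosomal RNA and sequenced on an Illumina NextSeq instrument. Per the submitters' processing notes and the study's methods, the authors trimmed reads with Trim Galore 0.5.0 and cutadapt 1.16, aligned them to mm10 with STAR 2.7.1a and counted fragments on exons of refGene with featureCounts (Subread 1.5.2), without a strand option and leaving out fragments with several mappings or overlapping genes. The deposited values are raw counts per gene, and 33 rows of the table that hold counting commands were dropped. Genes were filtered with filterByExpr by group, which kept 16582 of 25239. After TMM scaling, 1 quasi-likelihood model of the 9 groups was fitted (edgeR 4.0.16, limma 3.58.1, R 4.3.3), in which all groups share the estimate of the spread. Groups came from the sample labels. P-values were adjusted by Benjamini and Hochberg over all genes tested. Each SE was approximated from the log2 fold change and its F statistic. Normalised counts are counts divided by size factors of DESeq2 1.42.0. Folds against groups without counts used a floor of 3 counts over the group, and ratios with 1 to 3 counts an exact 95% interval, which covers counting error only. Some genes that passed are counted in their lists but not reported here. The edgeR scripts were tested on simulated data. Figures were drawn with matplotlib 3.10.9.

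Replicate numbers were checked for pairing: deviations from group means correlated at -0.018 between the 2 groups compared, and above 0.1 in 6 of the 36 pairs of groups (-0.144 to 0.159), so the numbers were not taken to pair samples. Replicates correlated at 0.982 without and 0.967 with cytokines. Named genes were the 15 highest and 15 lowest called log2 fold changes with a mean normalised count of at least 50 and non-overlapping groups. List members were named too, as were the 5 highest and 5 lowest called differences between genotypes. For these differences the same mean was taken over the day 6 libraries of both genotypes, without a limit on overlap. The comparison, its members and the lists were chosen with earlier results of these data known. The lists of lens crystallins, betaine and methionine cycle genes and preimplantation embryo genes were added after the values had been seen. Alternatives were RLE factors, library size alone, Rn45s left out, no filter, a mean CPM of at least 1, the replicate block, DESeq2, only the libraries compared, other limits and each library left out. Promoters came from RefSeq (GRCm38.p6).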

Additional observations from a re-analysis of the deposited data

Results flagged for a closer look

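The results given here were singled out because the test of the difference itself separated the TKO from the wild-type cytokine effect at day 6, where wild-type cells with cytokines were sorted and genotype and sorting cannot be told apart. Over all genes, 1748 had a higher and 1960 a lower effect in TKO cells at an adjusted p below 0.05 and a difference beyond 2 on the log2 scale. Of the LIF and BMP targets that passed in TKO cells, 6 had smaller log2 fold changes there, by -6.18 for Tfcp2l1, -5.73 for Icam1, -3.71 for Bcl3, -2.98 for Klf4, -2.46 for Smad7 and -1.42 for Junb. Bcl3 was at 84.0 and 80.8 without and 726 and 442 with cytokines in TKO cells. In wild-type cells it was at 4.08 and 0 without and 286 and 242 with them. Klf4 levels with cytokines were also higher in TKO (4971 and 4352) than in wild-type cells (1185 and 2212). Levels of the others are not compared here. Id1 had the larger effect in TKO cells, by 5.33, which was 3.18 without replicate 2 of wild-type cells without cytokines (a level of 3000 against 383 in replicate 1). The wild-type effect then was -0.42 (adjusted p = 0.320 by edgeR), so that opposite directions rested on that library.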

How the results depend on the processing

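The numbers of genes called higher and lower with cytokines (40 and 268) were 19 and 638 with scaling by library size alone, 61 and 365 with only the libraries compared, 222 and 428 with a log2 fold change beyond 1, 425 and 506 with no limit on it, 12 and 112 with an adjusted p below 0.01, and 39 and 177 without the 93 genes particular in level to TKO libraries without cytokines. The last was chosen after seeing the data, and lower levels with cytokines were part of the choice of its genes. Its smaller number of lower calls follows from that choice. With the replicate block they were 42 and 253 and with DESeq2 46 and 296. Of the named genes that passed, 14 of 113 no longer did with library size alone, 6 of 113 with the replicate block and 3 of 110 with DESeq2. Leaving out 1 library gave 9 to 30 and 79 to 131, and 31 of the 113 named genes passed in all 4 such fits (7 higher, 24 lower). No named gene changed direction. The difference between days held 0 genes beyond 2 on the log2 scale and 4 without a filter, 1 with DESeq2 (3 with no limit on the size), 1 with only the libraries compared and 0 to 0 with 1 library left out. The difference between genotypes (1748 and 1960) was 3013 and 3136 with a log2 limit of 1, 3474 and 3641 with none, and 1502 to 1953 and 1721 to 2031 with 1 library left out. Day 2 calls (26 and 236) were 9 to 17 and 41 to 128 with 1 library left out. Formative genes passed as lower numbered 8 with library size alone, 10 with only the libraries compared and 2 to 3 with 1 library left out, BMP antagonists 1 to 3, LIF targets 5 to 5 and retina genes 8 to 10. Causes were not tested. Having 2 libraries per group and totals of 11286050 to 16386003 counts limits the detection of low genes.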
